A study of Sus scrofa with 12 samples.

Results

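The 26S proteasome subunits are the 32 genes of the constitutive 26S proteasome followed here in IPEC-J2 cells, a line of epithelial cells of the pig intestine. The genes were taken by gene symbol: 14 core subunits (PSMA1 to PSMA7 and PSMB1 to PSMB7), 6 ATPase subunits (PSMC1 to PSMC6) and 12 non-ATPase subunits (PSMD genes and ADRM1). PSMD3 is the member that the study's title names, as acting on the m6A reader YTHDF2. The cells are wild type and were either given 25 µM OAA (2-oxindole-3-acetic acid) or left at 0 µM (CON), both for 24 hours. The assay was MeRIP-seq, in which RNA broken into pieces of about 100 nt is divided, and a portion is pulled down with an antibody to m6A, a methyl mark on adenosine in RNA. The 12 libraries form 4 groups of 3: OAA labelled input, OAA labelled IP, CON labelled input and CON labelled IP. Nothing in the labels says that the 3 samples of a group came from separate cultures, so a p-value here covers just the variation among those samples, and that variation may be technical.

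The 26S proteasome degrades proteins that carry ubiquitin chains. Its core particle is a barrel of alpha (PSMA) and beta (PSMB) rings, of which the beta subunits PSMB5, PSMB6 and PSMB7 cut peptide bonds. The regulatory particle on its ends holds a ring of ATPases (PSMC) that unfold the substrate, and non-ATPase subunits (PSMD, ADRM1) that bind ubiquitin, remove it and hold the particle together. In intestinal epithelium, as in other cells, it sets the turnover of regulatory proteins and clears damaged ones.

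The deposited peak table holds 25055 peaks with a read count in each library, and the FPKM file lists 20889 genes. Counts in peaks summed to 19.0 to 21.5 M reads in OAA labelled input, 4.36 to 4.61 M in OAA labelled IP, 16.5 to 23.0 M in CON labelled input and 3.71 to 4.46 M in CON labelled IP. The labels and the library codes disagree: the FPKM columns, a measure usually made from input libraries, bear codes given to the libraries with the IP label. The labels do not settle which label marks the antibody portion, so the libraries are called labelled input and labelled IP throughout. The authors' deposited log2 ratio of labelled input over labelled IP was above 0 for 99.8% of peaks in OAA and 99.9% in CON. Which label marks the antibody portion was not tested. The peak ratio is labelled input over labelled IP on the log2 scale, the direction of the ratio in the authors' deposited table. It was computed here after scaling each library to its reads in peaks, so that the median over all genes or peaks lies near 0, and its sign is relative to that median. Of 17 cell type markers, 15 were listed. The epithelial markers were high, with a mean KRT8 of 391 FPKM in OAA and 401 FPKM in CON and a mean EPCAM of 189 FPKM in OAA and 202 FPKM in CON. The 3 listed enterocyte markers (VIL1, SI and FABP2) summed to 11.0 to 15.6 FPKM in OAA and 12.0 to 13.8 FPKM in CON. Of these, VIL1 was near 0, at 0.218 FPKM in OAA and 0.273 FPKM in CON. Markers of other cell types were low: the summed FPKM of the 2 listed endothelial markers (CDH5 and PECAM1) ran from 4.86 to 5.63 in OAA and from 4.53 to 5.52 in CON. The 3 leukocyte markers summed to 0.985 to 1.096 FPKM in OAA and 0.807 to 1.52 FPKM in CON, with CD14 and CD3E above 0 and PTPRC listed at 0. The 3 fibroblast markers summed to 0.246 to 0.45 FPKM in OAA and 0.379 to 0.526 FPKM in CON.

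All 32 subunits were in the FPKM table, and 30 had at least 1 peak. In all, 52 peaks carried a member's symbol, 19 for the core, 9 for the ATPases and 24 for the non-ATPase subunits. Of these, 35 lay under 1 gene only. Those peaks belonged to 25 members: 10 of 14 core subunits, 4 of 6 ATPases and 11 of 12 non-ATPase subunits. PSMA3 and PSMB2, an alpha and a beta ring subunit, had no peak row. The catalytic subunit PSMB5, the alpha subunit PSMA5, the ATPases PSMC3 and PSMC5 and the lid subunit PSMD13 had only peaks shared with a neighbouring gene and were not measured alone. The gene ID listed as PSMA6, an alpha subunit, is named PRORP in the reference gene table, so its values are uncertain. Its first peak by position lies in a listed gene span of 64578247 to 64603351 on chromosome 7, and the others in 64617371 to 64763281. The gene IDs of PSMB5 and PSMB6 carry no symbol in that reference, so their names rest on the deposited symbols alone.

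The proteasome genes stood well above most genes in FPKM in both treatments. Their median level was 80.8 FPKM, against 11.2 FPKM over the 10763 genes with at least 1 FPKM in 3 libraries. By class the median was 111 FPKM for the core, 74.7 FPKM for the ATPases and 86.1 FPKM for the non-ATPase subunits. FPKM is scaled by length, so different genes are set side by side here, but only as far as the gene models and the portion sequenced allow. The FPKM are those of the libraries labelled IP, and whether they reflect total RNA was not tested.

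Within the core the mean levels spanned 17.1-fold. The highest was PSMA7, an alpha ring subunit, with 355, 357 and 307 FPKM in OAA and 334, 329 and 333 FPKM in CON. The lowest was PSMA4, another alpha ring subunit, with 18.8, 19.3 and 20.6 FPKM in OAA and 20.8, 19.2 and 19.3 FPKM in CON. Both overlapped between treatments, while every library of PSMA7 lay far above every library of PSMA4. Among the catalytic beta subunits the means over all 6 libraries were 229 FPKM for PSMB6, 129.7 FPKM for PSMB7 and 19.8 FPKM for PSMB5. The FPKM of PSMB5 is uncertain. Its stop codon peak, shared with C14orf93, held 2452 reads in OAA labelled IP and 2281 in CON labelled IP. The PSMB6 peak held 1539 and 1342.

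The ATPases lay closer together, over 2.60-fold. PSMC2 was highest, with 98.5, 101 and 102 FPKM in OAA and 102, 97.5 and 100.3 FPKM in CON. PSMC4 was lowest, with 40.4, 41.6 and 34.5 FPKM in OAA and 38.8, 37.3 and 38.9 FPKM in CON. The non-ATPase subunits spanned 8.11-fold. PSMD8, a lid subunit, was highest, with 311, 307 and 278 FPKM in OAA and 289.7, 293 and 289.95 FPKM in CON. PSMD11, also of the lid, was lowest, with 36.8, 37.7 and 35.3 FPKM in OAA and 35.5, 36.0 and 36.7 FPKM in CON. For each of these 4 genes the treatments overlapped.

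**Figure D1:**
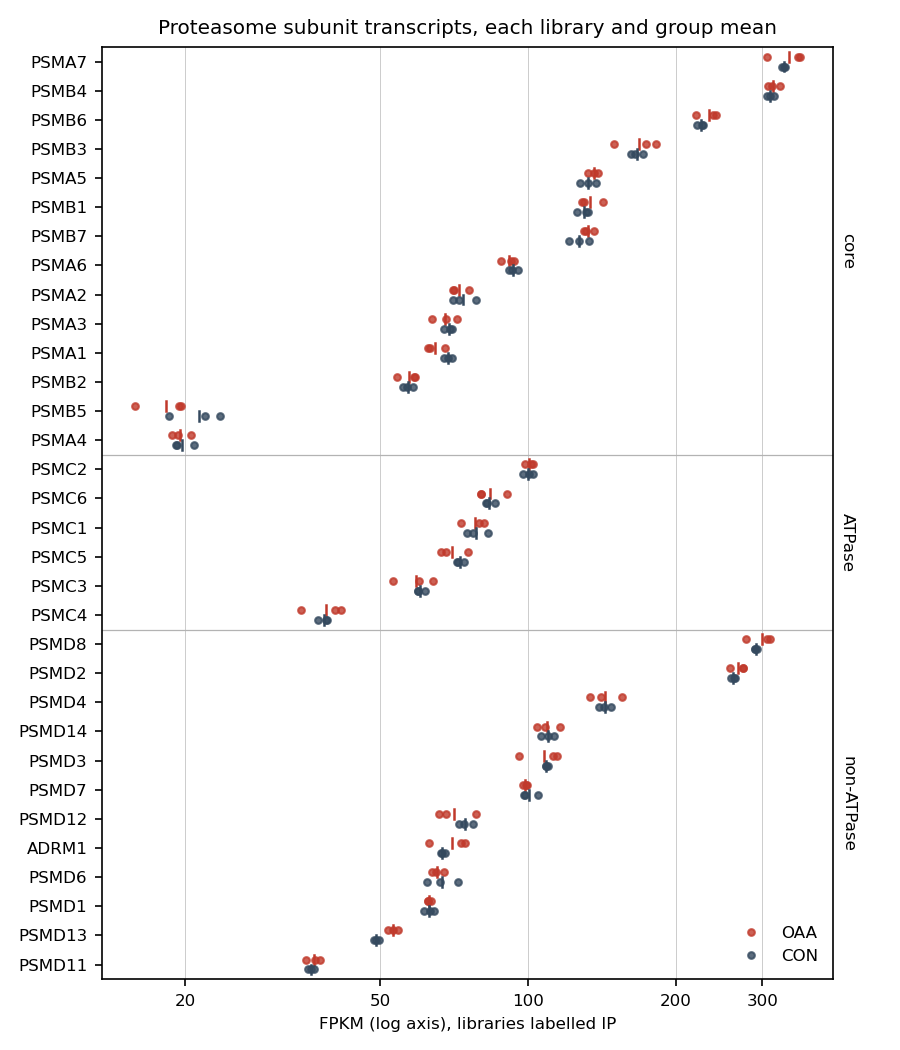
Level of each proteasome subunit in FPKM (log axis) by class, with a point for each library, a tick for each group mean and OAA drawn above CON (3 libraries each). Levels run from 19.7 FPKM for PSMA4 to 336 FPKM for PSMA7, and the points of the treatments overlap for every gene but PSMD13.

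PSMD3, a scaffold subunit of the lid, stood in the upper part of the non-ATPase group. It had 112, 114 and 96.0 FPKM in OAA, and 108.6, 109.6 and 108.6 FPKM in CON. The OAA libraries spread on both sides of the CON libraries, with the third OAA library below all of them. The mean was 107.5 ± 10.0 FPKM in OAA and 108.9 ± 0.563 FPKM in CON (SD, n = 3 each). On the log2(FPKM + 1) scale OAA over CON was -0.02 for PSMD3, with a 95% interval of -0.17 to 0.13 (limma, adjusted p = 1.00), and 0.06 without OAA replicate 3.

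None of the 32 subunits passed the test between OAA and CON in the FPKM (limma, adjusted p under 0.05), where 0.0% of 10763 genes did and 3.31% had an unadjusted p under 0.05. OAA over CON was above 0 for 16 members and below 0 for 16. The median over members was -0.00, with 0.01 for the core, -0.00 for the ATPases and -0.00 for the non-ATPase subunits, against -0.01 over all genes. The 95% interval of a member reached a median of 0.122 to either side on this log2 scale. It is not adjusted for the 10763 genes tested, so changes smaller than that, and larger ones too, could be missed. In bulk RNA, fewer cells of a kind and less RNA per cell cannot be told apart.

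The lowest core subunit was the catalytic PSMB5, with 19.6, 19.4 and 15.8 FPKM in OAA and 22.0, 18.5 and 23.6 FPKM in CON, a difference of -0.21 (limma, adjusted p = 1.00). The highest was PSMB7, also catalytic, at 0.06. Among the ATPases the differences ran from -0.05 for PSMC5 to 0.01 for PSMC4. Among the non-ATPase subunits PSMD12, a lid scaffold subunit, was lowest at -0.08. PSMD13, a lid subunit, was highest, with 53.1, 54.4 and 51.8 FPKM in OAA and 49.6, 48.9 and 48.5 FPKM in CON. It was the 1 member of 32 whose treatments did not overlap, where 8.55% of all genes tested did not, and its difference of 0.11 ± 0.05 (SE) did not pass (limma, adjusted p = 1.00, unadjusted p under 0.05). Of the 32 members, 20, 19 and 10 lay above their CON mean in OAA libraries 1, 2 and 3, and 21, 6 and 18 in CON libraries 1, 2 and 3. The third OAA library was lower over all genes too: 42.8% of all genes lay above their CON mean there, against 49.6% and 48.0% in the other OAA libraries. Without the third OAA library the members' median difference was 0.04.

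The peaks of the proteasome genes lay at start codons more often than peaks in general. A start codon peak made up 24 of the 52 (46.2%), against 19.9% of all peaks. Stop codon peaks made up 9 (17.3% against 23.3%), peaks wholly in coding sequence 8 (15.4% against 23.4%), peaks wholly in the 5′ UTR 5 (9.62% against 7.79%) and peaks wholly in the 3′ UTR 2 (3.85% against 18.6%). A further peak spanned both codons and 3 carried no such annotation. The median width was 488.5 bp for member peaks and 300 bp for all peaks. The shares are descriptions, since peaks of 1 gene share its sequence and level. Peak positions are given as deposited, counted from 1, on a build that is not given in the sources used here.

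PSMD3 (ENSSSCG00000017489) had peaks at both ends of its coding sequence, on chromosome 12, minus strand, in a gene spanning 22344752 to 22360744. The start codon peak was at chr12:22360153-22360502 and the stop codon peak at chr12:22344751-22345075. Summed over its peaks and scaled to CPM, reads scaled to the library's depth in peaks, the gene had 110.2, 113 and 110.6 CPM in OAA labelled input, against 311, 333 and 286 CPM in OAA labelled IP. In CON it had 102, 99.4 and 108 CPM in labelled input, against 320.1, 314 and 281 CPM in labelled IP. Every library labelled input lay below every library labelled IP in both treatments. The log2 ratio was -1.48 ± 0.07 (SE) in OAA (edgeR, adjusted p = 2.4e-14) and -1.56 ± 0.07 in CON (edgeR, adjusted p = 1.1e-14).

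Most proteasome genes had a low peak ratio: they took a larger share of the reads in peaks in the libraries labelled IP than in those labelled input. In OAA, 22 of the 25 genes with a peak of their own were lower in labelled input, 2 were higher and 1 was not called (edgeR, adjusted p under 0.05). In CON, 23 were lower and 2 higher. The members and the pathway list below were chosen with the low ratio of proteasome genes already known. The counts and p-values of the ratio therefore describe them and are no independent test. Of all 9097 genes tested, 76.7% passed in OAA (38.7% higher and 38.0% lower) and 76.7% in CON (38.9% higher and 37.8% lower). The members' median log2 ratio was -1.47 in OAA and -1.37 in CON, against 0.03 in OAA and 0.03 in CON over all genes tested. By class it was -1.69 in OAA and -1.48 in CON for the core, -1.18 and -1.04 for the ATPases, and -1.35 and -1.22 for the non-ATPase subunits. Leaving out PSMA6, 21 of 24 were lower in OAA and 22 of 24 in CON. In the authors' deposited table, whose scaling is not stated, the log2 ratio was above 0 for all 52 member peaks in both treatments, as it was for 99.8% of all 24931 peaks with a value in OAA and 99.9% in CON. Its median in the authors' deposited table was 2.86 for member peaks against 4.04 for all peaks in OAA, and 2.90 against 3.97 in CON. Below the median of all peaks lay 42 of the 52 member peaks in OAA and 41 in CON in the authors' deposited table, so the low ratio is one relative to other peaks and its sign depends on the scaling.

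Among the core subunits the lowest ratio was that of PSMB4, a beta ring subunit, at -2.06 in OAA and -1.88 in CON. It had 23.1, 20.9 and 27.1 CPM in OAA labelled input, against 100.8, 109 and 85.8 CPM in OAA labelled IP. The highest was PSMA6, at -0.81 in OAA and -0.69 in CON, a gene whose identity is uncertain. Without it the mean ratio over same-numbered libraries was highest for PSMB3, at -1.24 in OAA and -1.14 in CON. All 10 core subunits with a peak of their own were called lower in both treatments. The catalytic subunits PSMB6 and PSMB7 had ratios of -1.64 and -1.84 in OAA, and -1.60 and -1.77 in CON.

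Among the ATPases PSMC4 was lowest in OAA, at -1.81, and PSMC1 in CON, at -1.37. PSMC2 was highest in CON, at -0.90. PSMC6 was highest in OAA, at -0.22, and was not called there (edgeR, adjusted p = 0.415). It had 9.08, 12.1 and 20.3 CPM in OAA labelled input, against 17.4, 16.6 and 14.2 CPM in OAA labelled IP. The third OAA labelled input library lay above all 3 OAA libraries labelled IP, and the others lay below them. Without the third the ratio was -0.59 and was called.

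The non-ATPase subunits held both the lower and the higher genes. The lowest were ADRM1, a ubiquitin receptor, at -1.85 in OAA, and PSMD12 at -1.96 in CON (edgeR, adjusted p = 2.9e-13). The lid deubiquitinase PSMD14 stood at -1.35 in OAA and -1.22 in CON, and the ubiquitin receptor PSMD4 at -1.29 in OAA and -1.10 in CON. PSMD7, the partner of PSMD14, at -0.38 in OAA and -0.23 in CON, and the scaffold subunit PSMD2, at -0.25 and -0.27, were called lower with smaller differences. PSMD2 was not called in OAA without OAA labelled IP replicate 1 (-0.19) or 2 (-0.20).

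PSMD1, the other large scaffold subunit, went the opposite way. Its value comes from 1 peak, in the 5′ UTR, and that of PSMD2 from 1 peak in coding sequence. A 5′ UTR peak of PSMD2, shared with neighbouring genes, was also higher in labelled input in both treatments. PSMD1 had 13.3, 12.8 and 10.7 CPM in OAA labelled input, against 1.24, 1.27 and 1.05 CPM in OAA labelled IP. In CON it had 11.7, 11.2 and 12.0 CPM in labelled input, against 2.82, 2.03 and 2.45 CPM in labelled IP. Labels did not overlap in either treatment, and the ratio was 3.35 ± 0.30 (SE) in OAA (edgeR, adjusted p = 7.4e-10) and 2.26 ± 0.27 in CON (edgeR, adjusted p = 7.6e-08). PSMD11 was also higher, by far less: 0.21 in OAA (edgeR, adjusted p = 0.0116) and 0.17 in CON (edgeR, adjusted p = 0.0363). Its call was lost when libraries were scaled by size alone, at 0.11 in OAA and 0.05 in CON. It was also lost without OAA labelled IP replicate 2 in OAA. In CON it was lost without labelled input replicate 1 or 3 or any 1 labelled IP replicate.

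**Figure D2:**
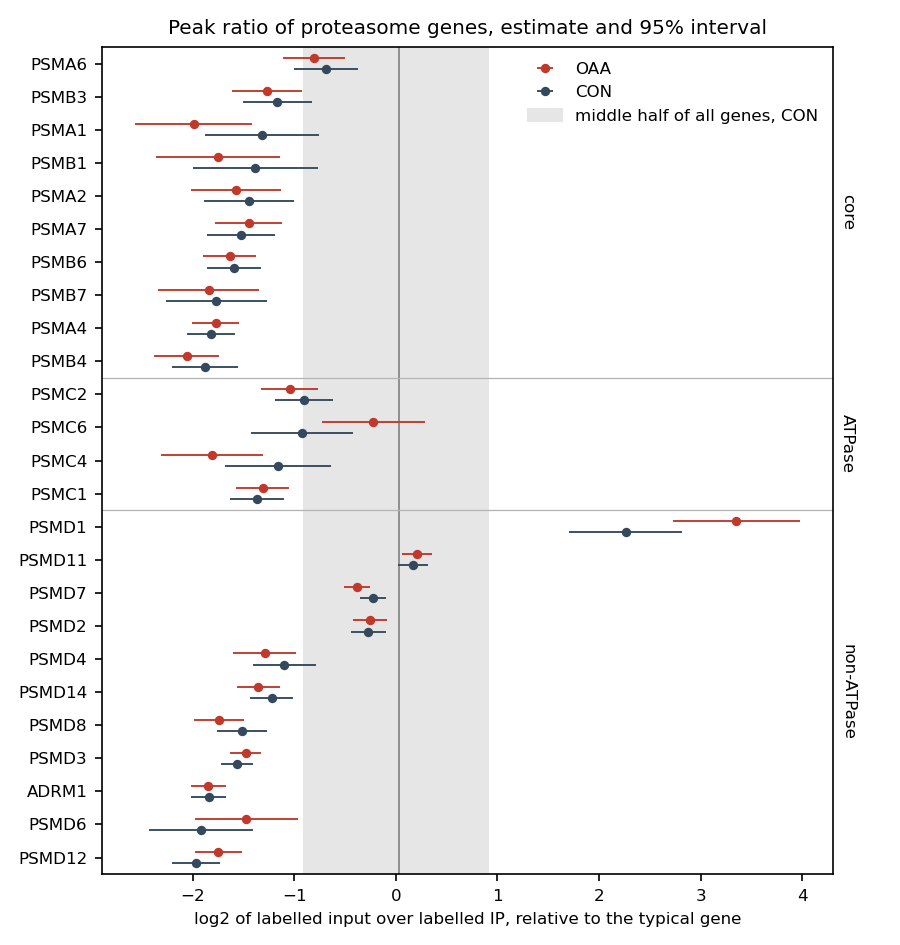
Log2 ratio of labelled input over labelled IP for each proteasome gene with a peak of its own, by class, with 95% intervals and OAA drawn above CON; the grey band is the range that holds the central 50% of all genes in CON. Of the 25 genes, 23 lie below 0 in CON, and PSMD1 stands alone on the right at 3.35 in OAA and 2.26 in CON.

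Within the group little correlation of level with the ratio was seen. Across the 25 genes Spearman's correlation of FPKM with the ratio was -0.02 in OAA and -0.10 in CON. Across the 7968 genes with a ratio and a mean of 1 FPKM or more it was -0.45 in both treatments. Whether the group differs from all genes in this was not tested, and 25 genes at mostly high levels are few for it. Genes are not independent replicates, and the FPKM and the ratio share the libraries labelled IP.

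Single peaks showed the same direction for most of the group. Of 51 member peaks tested, 34 were lower in labelled input in OAA, 8 higher and 9 not called, and in CON 36 were lower, 7 higher and 8 not called (edgeR, adjusted p under 0.05). Among all 24145 peaks, 68.5% were called in OAA (34.1% higher and 34.4% lower) and 68.1% in CON (33.9% higher and 34.2% lower). The median over member peaks was -1.10 in OAA and -0.998 in CON, against 0.03 in OAA and 0.03 in CON over all peaks. With scaling by library size alone, 6729 of all peaks were higher and 9892 lower in OAA, and 6516 higher and 10068 lower in CON. The median of all peaks then moved to -0.24 in OAA and -0.28 in CON and that of member peaks to -1.38 in OAA and -1.30 in CON.

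The low ratio was found at start codons, at stop codons and in coding sequence. In CON, 22 of the 24 start codon peaks lay below 0, with a median of -1.09 against -0.17 over all start codon peaks. At stop codons 7 of 9 lay below 0, with a median of -1.37 against 0.29. In coding sequence 8 of 8 did, with a median of -0.89 against -0.05. The 4 tested peaks wholly in the 5′ UTR, of PSMD1, PSMD2 and PSMD14, had a median of 1.13 against 0.34, and both PSMD2 peaks among them were shared with neighbouring genes.

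**Figure D3:**
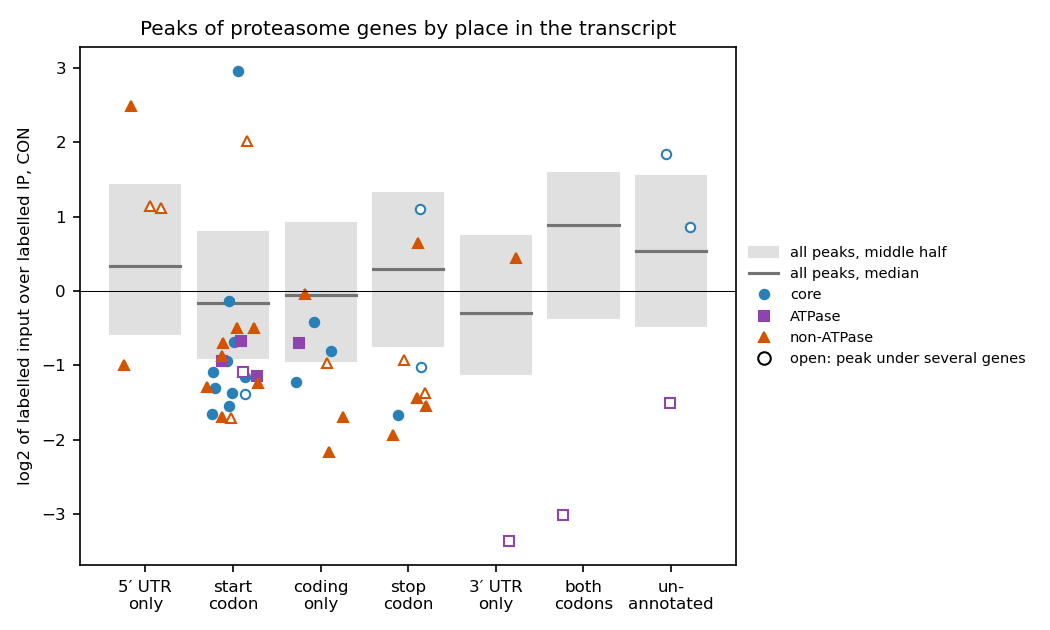
Log2 ratio of labelled input over labelled IP in CON for each proteasome peak, placed by annotation class, with open symbols for peaks shared with another gene; grey marks the median and the range of the central 50% of all peaks of the class. Members at start codons centre on -1.09, against -0.17 for all peaks there.

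The 7 member peaks called higher in CON were those of PSMD11 in the 3′ UTR (0.44), PSMD7 at the stop codon (0.64), PSMB7 at the stop codon (1.10), PSMD2 in the 5′ UTR (1.14) and at the start codon (2.02), PSMD1 in the 5′ UTR (2.49) and PSMA4 at the start codon (2.96). In OAA the same peaks stood at 0.51, 0.50, 1.44, 0.94, 1.86, 3.57 and 2.42, and a shared PSMA5 peak was called too, at 2.52. Scaled by library size alone, 4 in place of 7 were called in CON, without PSMD11 (0.14), PSMB7 (0.79) and the start codon peak of PSMD2 (1.72), and 7 in place of 8 in OAA, without the start codon peak of PSMD2 (1.59). The PSMB7 call in CON was also lost without CON labelled IP replicate 1 (0.84). That of the PSMD2 start codon peak was lost in CON with a replicate block (1.91) and without CON labelled IP replicate 1 (1.45) or 2 (2.33), and in OAA without OAA labelled IP replicate 1 (1.74) or 3 (1.51). This peak held 7 reads in all OAA libraries labelled IP and 4 in all CON libraries labelled IP. The PSMB7 peak was shared with NEK6, and the PSMD2 peaks with ALG3 and EEF1AKMT4. The lowest member peaks were both at PSMC5 and shared with FTSJ3 and SMARCD2: a 3′ UTR peak at -2.39 in OAA and -3.37 in CON, and a peak over both codons at -3.07 in OAA and -3.01 in CON.

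For a few peaks 1 label held very few reads. The PSMD1 peak, at chr15:131807639-131812853, held 627 reads in OAA labelled input and 14 in OAA labelled IP, a depth-scaled ratio of 12.0 with a counting interval of 7.10 to 22.1. In CON it held 599 and 26 reads, a ratio of 5.65 (3.82 to 8.72). The start codon peak of PSMA4 held 102 and 5 reads in OAA, a ratio of 5.47 (2.27 to 17.2), and 69 and 2 reads in CON, a ratio of 8.46 (2.26 to 71.3). These intervals have a confidence of 95% and cover counting error only. The stop codon peak of PSMA4 had a log2 ratio of -1.66 in both treatments, opposite to that at its start codon.

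Peaks within 1 gene also differed for PSMD7. Its coding sequence peak, at chr6:17056296-17056370, had 36.8, 34.8 and 37.1 CPM in OAA labelled input, against 164, 171 and 165 CPM in OAA labelled IP. Its stop codon peak, at chr6:17056646-17057170 and 275 bp further on, had 306, 326 and 318 CPM in OAA labelled input, against 213, 217 and 242 CPM in OAA labelled IP. In both peaks the labels did not overlap in OAA, in opposite directions. The log2 ratio was -2.20 in OAA and -2.16 in CON at the coding sequence peak, and 0.50 in OAA and 0.64 in CON at the stop codon peak. The start codon peak stood at -0.71 in OAA and -0.49 in CON.

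The PSMD3 peaks, in contrast, were alike. The start codon peak had 64.8, 73.5 and 67.9 CPM in OAA labelled input, against 169, 172 and 148 CPM in OAA labelled IP. In CON it had 65.8, 65.4 and 66.8 CPM in labelled input, against 158, 159.9 and 147 CPM in labelled IP. The stop codon peak had 36.9, 31.2 and 34.8 CPM in OAA labelled input, against 78.0, 93.9 and 79.0 CPM in OAA labelled IP. Each set of libraries labelled input lay below the libraries labelled IP of the same treatment. In CON the stop codon peak had 28.2, 27.3 and 32.8 CPM in labelled input, against 95.6, 87.7 and 75.2 CPM in labelled IP. The log2 ratio was -1.25 in OAA and -1.23 in CON at the start codon, and -1.28 in OAA and -1.55 in CON at the stop codon.

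**Figure D4:**
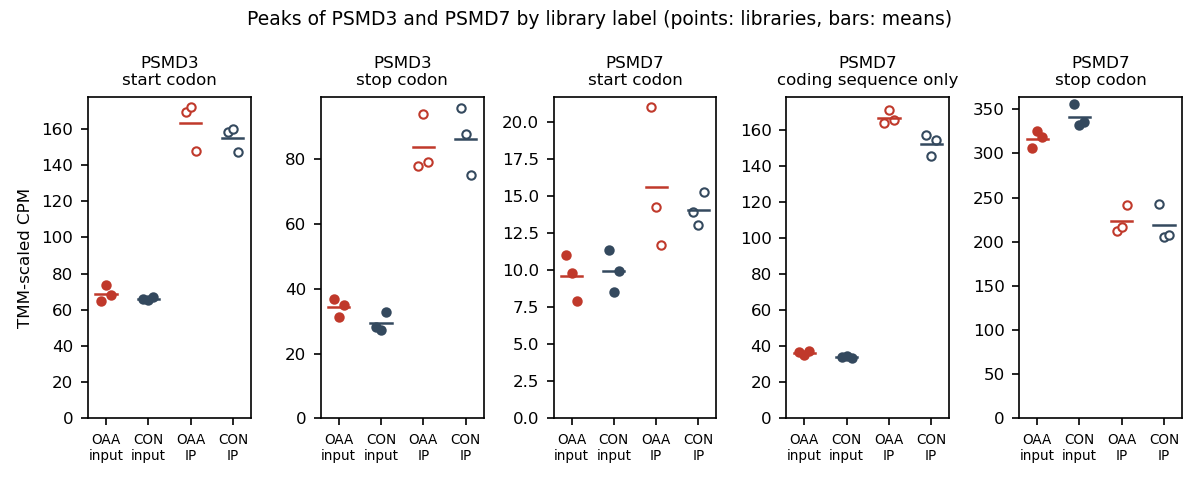
CPM in each library for the PSMD3 peaks (start and stop codon) and the PSMD7 peaks (start codon, coding sequence and stop codon), with OAA beside CON within each label. Both PSMD3 peaks are lower in labelled input, while the PSMD7 stop codon peak is higher in labelled input, at 306 to 326 CPM in OAA.

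Between OAA and CON no proteasome gene passed the test in the libraries labelled input (edgeR), where 0.0% of 9298 genes did and 4.87% had an unadjusted p under 0.05. DESeq2 called 1 gene there, not a member. Of the 25 members, 14 lay above 0 and 11 below, with a median of 0.03 against -0.00 over all genes. By class the median was -0.07 for the core, 0.07 for the ATPases and 0.06 for the non-ATPase subunits. PSMD3 averaged 111 ± 1.68 CPM in OAA and 103 ± 4.37 CPM in CON (SD, n = 3 each), a log2 difference of 0.11 with a 95% interval of -0.04 to 0.26. PSMA1, an alpha ring subunit, had the lowest difference. It had 2.52, 6.45 and 4.37 CPM in OAA and 8.49, 7.09 and 6.39 CPM in CON. Its highest OAA library lay just above its lowest CON library, and the difference of -0.72 ± 0.31 (SE) did not pass (edgeR, adjusted p = 0.929, unadjusted p under 0.05). The highest core subunit was PSMA7 at 0.19. The ATPases ran from -0.09 for PSMC4 to 0.36 for PSMC6 (edgeR, adjusted p = 0.929), and the non-ATPase subunits from -0.09 for PSMD8 to 0.19 for the lid subunit PSMD6.

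In the libraries labelled IP no member passed either (edgeR), where 0.0% of 8138 genes did and 3.65% had an unadjusted p under 0.05, and DESeq2 called 0. Of 24 members tested, 17 lay above 0 and 7 below, with a median of 0.05. By class it was 0.03 for the core, 0.11 for the ATPases and 0.04 for the non-ATPase subunits. With 1 library left out the members' median in labelled IP ran from -0.01 to 0.11, and that over all genes from 0.0001 to 0.003. Whether the split of members above and below 0 differs from that of all genes was not tested. PSMD1 had too few reads there to be tested. PSMD3 averaged 310.1 ± 23.6 CPM in OAA and 305 ± 20.9 CPM in CON (SD, n = 3 each), a log2 difference of 0.02. PSMC4 was highest, with 19.4, 17.6 and 13.4 CPM in OAA and 10.7, 12.5 and 11.0 CPM in CON. These groups did not overlap, and the difference of 0.56 ± 0.22 (SE) did not pass (edgeR, adjusted p = 1.00, unadjusted p under 0.05). The share of all genes without overlap was not computed for this label, so the lack of overlap alone says little. PSMC6 was the lowest ATPase, at -0.35. The core ran from -0.11 for PSMB7 to 0.22 for PSMA6, and the non-ATPase subunits from -0.26 for PSMD6 to 0.13 for PSMD8. Without the uncertain PSMA6 the core reached 0.15, for PSMB4. Without OAA labelled IP replicate 3, 44 genes of the whole table passed in place of 0, none of them a proteasome gene; the members' median was then 0.11 and PSMD3's difference 0.08.

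**Figure D5:**
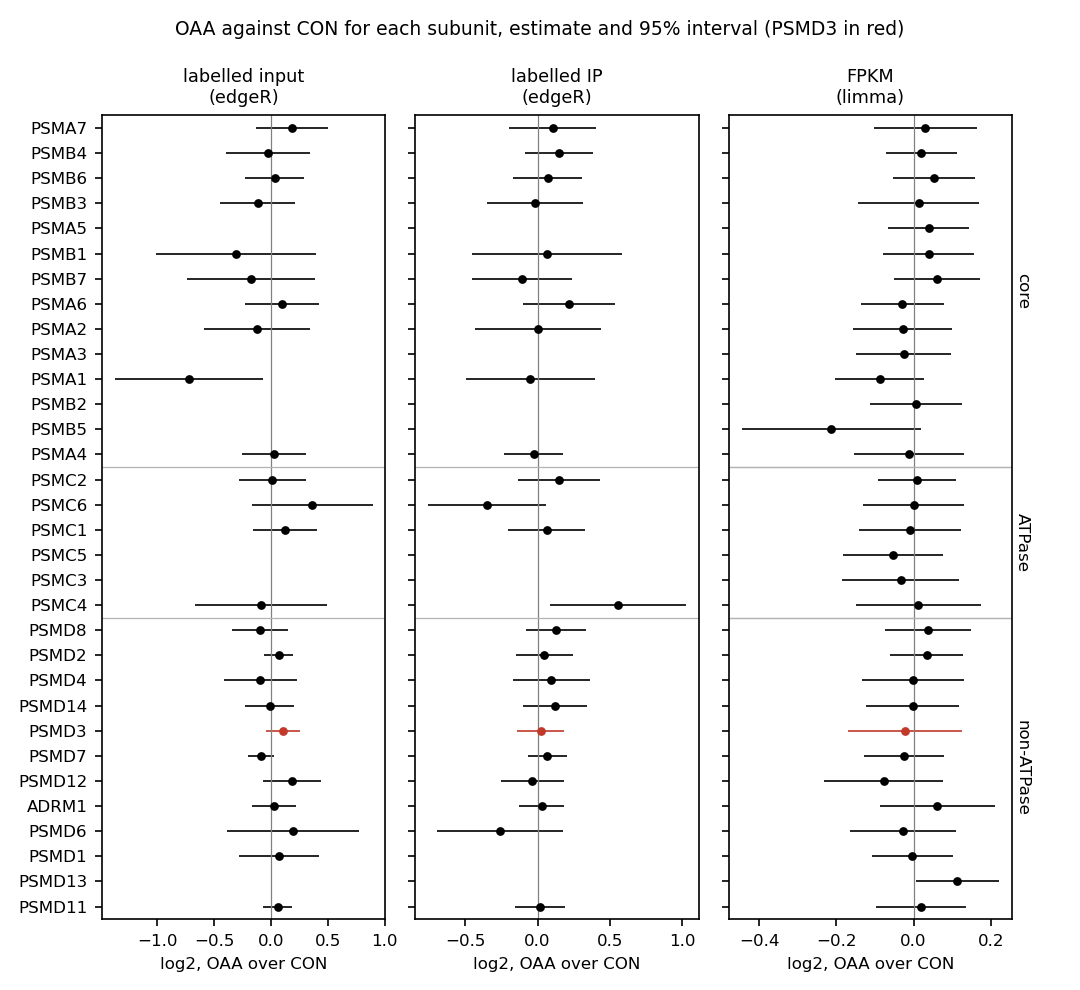
Log2 difference of OAA over CON for each proteasome gene with its 95% interval, in panels for labelled input, labelled IP and FPKM, with PSMD3 in red. The FPKM intervals are narrow around 0, and the peak-count intervals are widest for the genes with few reads, such as PSMA1 at -0.72 in labelled input.

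No change of the peak ratio with OAA was detected for a proteasome gene. None of the 25 passed the test of the change (edgeR), where 0.0% of 9097 genes did and 3.73% had an unadjusted p under 0.05. The change, the ratio in OAA minus that in CON, was above 0 for 10 members and below 0 for 15, with a median of -0.07. By class it was -0.11 for the core, -0.04 for the ATPases and 0.02 for the non-ATPase subunits. With 1 library left out the members' median change ran from -0.13 to 0.06, and that over all genes from -0.01 to 0.0006. For PSMD3 the change was 0.09, with a 95% interval of -0.13 to 0.30. PSMD1 had the largest positive change of the members, 1.09 ± 0.46 (SE), which did not pass (edgeR, adjusted p = 1.00, unadjusted p under 0.05). PSMC6 was highest among the ATPases at 0.70 and PSMC4 lowest at -0.65. The core ran from -0.67 for PSMA1 to 0.08 for PSMA7, and PSMD8 was the lowest non-ATPase subunit at -0.23.

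By single peak, none of the member peaks passed in labelled input (0.0% of 24835 peaks did), in labelled IP (0.00498% of 20098) or for the change of the ratio (0.0% of 24145). The share of all peaks with an unadjusted p under 0.05 was 5.2%, 3.88% and 4.46% in the same order. In labelled input the member peaks with an unadjusted p under 0.05 were a shared PSMA7 peak (-1.38), the PSMA1 peak (-0.71), the PSMD12 start codon peak (0.45) and a shared PSMD13 start codon peak (1.44), each with an adjusted p of 0.940 (edgeR). In labelled IP they were the PSMC4 peak (0.55) and a PSMA6 coding sequence peak (0.70), with an adjusted p of 0.998 (edgeR). For the change they were the shared PSMA7 peak (-2.54), the PSMC6 peak (0.70) and the PSMD1 peak (1.08). For PSMD3 the change was 0.26 at the stop codon and -0.01 at the start codon.

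In the authors' deposited table the change of PSMD3 was 0.32 at the stop codon peak with a p of 0.214, and 0.05 at the start codon peak with a p of 0.814. In the authors' deposited table the member peaks with the smallest p-values were those of PSMC6 (0.0399), PSMD1 (0.0462) and PSMA5 (0.0496), each with an adjusted p of 1.00.

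Other genes of the pathway were followed as a list of 45 immunoproteasome subunits, activators, assembly factors, bound and shuttle factors, transcription factors of the subunits and ubiquitin genes. Of these, 41 were in the FPKM table and 39 were tested between OAA and CON, with 0 called in either direction (limma, adjusted p under 0.05). Those with an unadjusted p under 0.05 were the assembly factor PAAF1 (0.24), the shuttle factor UBQLN2 (0.21), the inhibitor PSMF1 (0.18) and the bound ubiquitin ligase UBE3C (-0.15), each with an adjusted p of 1.00. The immunoproteasome subunits PSMB8, PSMB9 and PSMB10 had means of 40.6, 5.57 and 19.5 FPKM over the 6 libraries. They replace the catalytic core subunits in immune and cytokine-treated cells. The tissue-specific subunits PSMA8 and PSMB11 were listed at 0.

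For the peak ratio, 24 of these genes had a peak of their own. In OAA 16 were lower, 4 higher and 4 not called, with a median of -0.85, and in CON 16 were lower, 4 higher and 4 not called, with a median of -0.84 (edgeR, adjusted p under 0.05). Over all genes tested 38.0% were lower and 38.7% higher in OAA, and 37.8% lower and 38.9% higher in CON, with a median of 0.03 in both treatments. The lowest was UFD1, a partner of the unfolding factor VCP, at -2.30 in OAA, and the assembly factor PSMD5 at -1.88 in CON. The highest was the ubiquitin-activating enzyme UBA1, at 1.92 in OAA and 1.69 in CON. Within CON, NFE2L1 (0.77), USP14 (0.51) and NFE2L2 (0.33) were also higher in labelled input than in labelled IP. These values are not differences between OAA and CON. NFE2L1 is the transcription factor that raises proteasome genes when the proteasome is blocked. USP14 is a deubiquitinase and NFE2L2 a transcription factor of antioxidant genes.

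YTHDF2, the m6A reader that the study's title sets beside PSMD3, had 26.9, 26.5 and 28.2 FPKM in OAA and 29.3, 32.1 and 27.95 FPKM in CON. The treatments overlapped slightly, and the difference of -0.12 did not pass (limma, adjusted p = 1.00). Its peak ratio was 1.12 in OAA and 1.07 in CON, opposite in sign to that of PSMD3.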

How the data were processed

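Per the labels' protocols, RNA was fragmented, divided into an input and an m6A antibody portion and sequenced; Bowtie2 and HISAT2 are named in the submitters' processing notes, and for their roles, their versions, the build and the peak caller the entry is: not given in the sources used here. The authors deposited read counts per peak and library, log2 ratios and p-values of their own comparison, and FPKM per gene for 6 libraries. Peaks were followed singly and as counts summed per gene over peaks listed under 1 gene ID. Counts were tested with edgeR 4.0.16 (TMM scaling, filterByExpr, quasi-likelihood F test) in R 4.3.3, and log2(FPKM + 1) with limma 3.58.1 over genes that reached 1 FPKM in 3 libraries, so FPKM differences are on that scale and understate changes of low genes. All features were fitted together, and p-values were Benjamini-Hochberg adjusted and called under 0.05. OAA and CON were compared within a label in the 6 libraries of that label; the ratio and its change used all 12. Printed CPM come from the fit of all 12. Peak starts in the deposited table count from 0 and are printed counted from 1. The scripts were tested on simulated counts. DESeq2 1.42.0, other scalings, filters, pseudocounts, a replicate block and leaving out each library were alternatives. Intervals on read numbers cover counting error only.

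The members and lists were chosen with earlier results of these data known, among them the low peak ratio of proteasome genes, so their counts describe them. All members are accounted for. Named in each comparison are PSMD3, members called where few, members with an unadjusted p under 0.05 and the highest and lowest of each class. For peaks, the highest, the lowest and those called against the direction of most are named. From the pathway list, genes with an unadjusted p under 0.05 in the FPKM, the highest and lowest ratio and some other genes with a high ratio are named. Peak count comparisons of that list between OAA and CON are not given. PSMD14, PSMD4, PSMD2, PSMB6 and PSMB7 were named besides for their roles, and PSMD7 for its peaks, after their values were seen. All 12 libraries share 1 batch value in the labels, so no batch could be compared.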

Additional observations from a re-analysis of the deposited data

How the results depend on the processing

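No value that was called in either setting changed direction. No proteasome gene or peak was called between OAA and CON, or for the change of the ratio, under any alternative run. Members called lower for the ratio numbered 21 to 23 in OAA and 23 to 23 in CON per gene with 1 library left out, and 33 to 34 in OAA and 32 to 37 in CON per peak. The counts over all features moved as follows, and the cause was not tested. With 1 library left out, labelled IP gave 0 to 44 genes and 0 to 50 peaks, labelled input 0 to 1 genes and 0 to 1 peaks, and the change 0 to 1 genes and 0 to 1 peaks. The 44 genes and 50 peaks came without OAA labelled IP replicate 3. DESeq2 called 1 gene and 2 peaks in labelled input and 1 peak for the change. In labelled IP, scaling by library size alone called 0 peaks and no filter on low counts called 4. In the FPKM, no filter on low values called 1 gene. With a replicate block, 1 peak was called in labelled input, 4 in labelled IP and 1 for the change, and members called lower per gene numbered 22 in OAA and 23 in CON. Same-numbered libraries labelled input and labelled IP deviated with correlations of -0.04 to 0.14, and those of OAA and CON with -0.25 to -0.00, so the numbers were not taken as pairs. Of the single-member log2 values, 1714 kept both their direction and their side of the threshold under alternatives that keep all libraries, 19 changed sign without being called in either setting, 6 passed only there and 9 no longer passed. With 1 library left out these numbers were 3379, 307, 7 and 39. Depth limits single peaks with few reads labelled IP most: those of PSMA4 and PSMD2 at the start codon, one of PSMD2 in the 5′ UTR, that of PSMD1, and the shared PSMA5 and PSMA7 peaks each held 26 or fewer in a treatment.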
